A study of Mus musculus with 4 samples.

Results

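The cells described here are those with the highest expression of a growth signature among CD8 T cells that had few transcripts of B cells, granzymes, mitosis or recent T cell receptor (TCR) signalling. For each cell a growth score was taken as the mean of ln(1 + UMIs per 10000) over 7 genes (Srm, Ncl, Npm1, Ranbp1, Hspd1, Phgdh and Mif), where a UMI (unique molecular identifier) stands for 1 captured mRNA molecule. Cells entered the ranking when they had at least 500 genes, at least 1000 UMIs, at most 10% mitochondrial UMIs, fewer than 2 UMIs of Cd79a and Ms4a1 together, fewer than 5 of Gzma and Gzmb, fewer than 3 of Mki67, Top2a and Ccnb2, and fewer than 2 of Tnfrsf4, Tnfrsf9 and Egr3. The top 10% by score over all libraries, 579 of 5791 cells within these limits, are called high-score cells; the series held 11113 barcodes, of which 10324 passed the quality limits. The cells came from 4 single-cell libraries (10x Genomics 3' chemistry) of lymph nodes draining a tumour in C57BL/6 mice, 14 days after the tumour was implanted. They had been sorted as CD8+ cells carrying CD44, a surface protein of antigen-experienced T cells, and CD90.1. The labels give a group M9 with high affinity GP33 and a group C6M9 with low affinity GP33, GP33 being a viral peptide epitope, and the series title names progenitor exhausted CD8 T cells and TCR engagement as its subject. Each group had 2 libraries, described as biological duplicates. Cells of 10 mice (M9) and 35 mice (C6M9) were pooled, and the labels do not say how mice were divided over the libraries, so each p-value measures the spread between 2 pools that may share mice. The labels used here give neither the age of the mice nor the origin of the CD90.1 cells.

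A T cell that meets its antigen leaves quiescence by growing before it divides. It makes ribosomes, folds and imports new proteins, synthesises nucleotides, serine-derived one-carbon units and polyamines, and takes up amino acids, and the transcription factor Myc drives much of this programme. The score genes stand for these steps: Ncl (nucleolin) and Npm1 (nucleophosmin) are nucleolar proteins of ribosome assembly, Srm makes the polyamine spermidine, Ranbp1 serves nuclear transport, Hspd1 is the mitochondrial chaperonin HSP60, Phgdh opens serine synthesis and Mif is a cytokine with high expression in proliferating cells. In lymph nodes, progenitor exhausted CD8 T cells are the self-renewing TCF1+ cells from which later exhausted cells arise.

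One regulatory sequence bears on this programme, because the E-box CACGTG (identical on both strands) is the preferred binding motif of Myc with its partner Max. RefSeq promoter windows (GRCm38.p6) were found for 5 of the 7 score genes, namely Hspd1, Ncl, Phgdh, Mif and Ranbp1, and 1 of the 5 held the motif within the 250 bases before the start site. It lies at chr1:55088291-55088350 on the minus strand, 80 bases before 1 of the 2 start sites of Hspd1 in the table, and is shown with the motif in capitals; the window of the other start site, at chr1:55087883-55088182, did not hold it:
Hspd1: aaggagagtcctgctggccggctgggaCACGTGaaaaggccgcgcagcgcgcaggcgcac
The same stretch held the motif in 6.02% of all 32851 windows, and 6.86% of all genes with a window held it in at least 1. It was present for 10.7% of the genes whose level could be described here and for 60 of the 411 genes with a window that were higher in high-score cells (14.6%, by the criterion given below). Among ribosome biogenesis genes 2 of 49 held it. A match of letters is a description and no evidence of binding.

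The 4 libraries held 215 high-score cells for M9 replicate 1, 42 for M9 replicate 2, 214 for C6M9 replicate 1 and 108 for C6M9 replicate 2, and values below are given in this order. Their summed UMIs, the depth behind every level below, were 3237123, 783061, 2822895 and 2022113. M9 replicate 2 thus rests on the fewest cells and UMIs. Levels are UMIs per 1000000 UMIs of the same sum (CPM). A gene with 0 UMIs in a library allowed up to 0.927, 3.83, 1.06 and 1.48 CPM (3 UMIs of the total, counting error only). The cells carried T cell transcripts: Cd8a was seen in 97.7%, 97.6%, 99.1% and 95.4% of them, at a median depth of 11199 to 16632 UMIs. The share that free RNA would give was not measured, because the B cells of these libraries could be told from doublets only by their lack of T cell transcripts. Of markers that define other cells, Pax5, Foxp3, Csf1r, Ncr1, Jchain, Siglech and C1qa had 0 UMIs in all 4 sums, while Cd4 had 9, 4, 1 and 5 UMIs and Cd79b had 82, 19, 49 and 48. Across the libraries 7 barcodes occurred more than once, and 2 high-score cells carried such a barcode.

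The score genes were higher in high-score cells by construction, and their values are given as a description. Ncl stood at 1108, 1076, 865 and 843 CPM and Npm1 at 1693, 1526, 1587 and 1515, on average 1.96 and 1.79 times their levels in the other 5212 cells within the limits. Ranbp1, with 273, 235, 250 and 255 CPM, was 3.21 times its level there, and Srm, with 45.4, 42.1, 59.9 and 49.95, was 6.62 times. The range of these ratios shows that the abundant genes Ncl and Npm1 differed little while the sparse genes differed most. Srm was seen in 42.3% of high-score cells against 9.19% of the other cells, Phgdh in 75.1% against 38.7%, and all 7 score genes in 28.8% against 2.42%. Hspd1, Phgdh and Mif were 2.73, 3.02 and 2.86 times higher.

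The cells formed no separate population along the score, as the plot of score distributions shows. The lowest members had scores of 1.2047 and 1.20477 and the highest non-members 1.20459 and 1.20446. Within 0.05 of the lowest member score lay 153 members above and 233 other cells below. When the UMIs of each cell were divided at random into equal parts and the rule was applied to each, 249 of 579 cells chosen on one part were chosen on the other (43.0%, with 45.7%, 38.1%, 36.5% and 51.5% by library). On the UMIs not used to choose, the ratios of the score genes to the other cells were 4.42 for Srm, 2.50 for Ranbp1 and Mif, 2.33 for Phgdh, 2.25 for Hspd1, 1.74 for Ncl and 1.64 for Npm1. The higher level of the score genes thus held on unused UMIs, at a smaller size. The choice of single cells did not repeat between the parts for most cells. Each part held fewer UMIs than the whole cell, so 43.0% does not give how often a choice on all UMIs would repeat. Of the 579 cells chosen on one part, 67.7% were high-score cells by all UMIs, which include that part. The rule takes the top 10% by score, so a choice at random would repeat for about 10%.

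**Figure D1:**
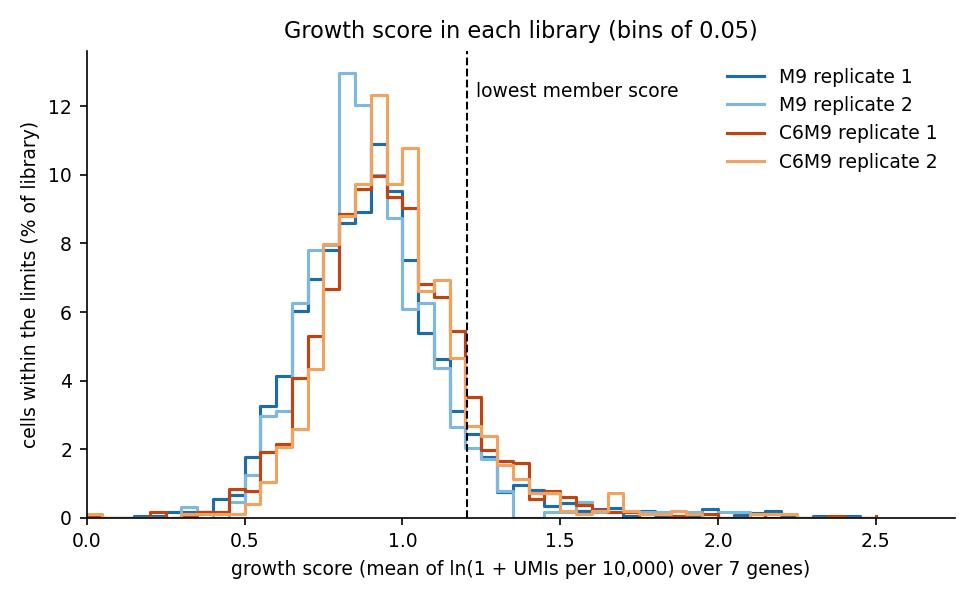
Share of the cells within the limits (vertical axis, % of each library) by growth score (horizontal axis, bins of 0.05), 1 line per library; the dashed line is the lowest score of a high-score cell, 1.2047. Each library shows 1 continuous peak with a tail to the right up to a score of 2.698, and the line cuts the shoulder of the peak.

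The name "growing blasts" was checked against depth and Myc, and most of the cells did not carry these features. A blast is a large cell with much RNA, yet the median UMIs per high-score cell were 14156, 16632, 11198.5 and 14006.5, against 10520, 16140, 10700 and 15340 in the other cells. High-score cells were clearly deeper in M9 replicate 1 alone and shallower than the other cells in C6M9 replicate 2, whereas cycling cells, which met every limit but that on Mki67, Top2a and Ccnb2, had medians of 23200 to 37870. Myc, the fifth marker and no part of the score, stood at 24.1, 8.94, 17.4 and 20.3 CPM in high-score cells and at 11.04, 9.85, 14.4 and 16.1 in the other cells, a mean ratio of 1.34 that fell below 1 in M9 replicate 2. It was seen in 16.8% of high-score cells and 12.8% of the other cells, and in 6.63% and 5.68% after each cell had been thinned to 5000 UMIs. Cells that failed only the limit on Tnfrsf4, Tnfrsf9 and Egr3, receptors and a transcription factor induced by TCR signalling, had a mean Myc level of 49.5 CPM. In cycling cells Myc stood at 9.69, 7.85, 11.7 and 14.1 CPM, under the high-score cells of each library. It was seen in 23.0% of cycling cells, and in 4.81% after thinning. A low Myc level thus did not tell high-score cells from cycling cells.

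The top 58 cells by score, with scores of 1.719 to 2.698, were deeper and higher in ribosome biogenesis than the other cells in each library. Their Myc level was not higher in each library. Their median depth was 19050 UMIs, their summed ribosome biogenesis genes reached 5593 CPM and their pooled Myc level 44.6, against 2445 and 14.9 in the 289 lowest-scoring high-score cells and 1707 and 12.9 in the other cells. Slc7a5, a subunit of the large amino acid transporter, was at 21.5 CPM and Odc1, which starts polyamine synthesis, at 238. The Myc level of these 58 cells came mainly from M9 replicate 1, which held 31 of them and had 85.5 CPM. The 5, 12 and 10 cells of the other libraries had 0, 7.71 and 21.4, against 9.85, 14.4 and 16.1 in the other cells there. In ribosome biogenesis the next 232 cells, at 3176 CPM, lay between the top 58 and the lowest 289. Their median depth was 13130 UMIs, while the lowest 289, with 11870, were level with the other cells (11880). Myc in the next 232 cells was at 7.65, 4.81, 22.4 and 26.45 CPM by library. This was under the other cells in both M9 libraries and above them in both C6M9 libraries.

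The other claim of the name, before S phase, was checked with 4 genes of S phase that the rule did not use (Rrm2, Tyms, Pclaf and Clspn). Of the high-score cells, 13, 2, 6 and 4 had 3 or more UMIs of these genes, which is 6.05% (95% Wilson interval 3.57 to 10.1), 4.76% (1.32 to 15.8), 2.80% (1.29 to 5.98) and 3.70% (1.45 to 9.14). The other cells had 1.62%, 2.68%, 2.56% and 3.85% and the cycling cells 68.9%, 58.8%, 83.1% and 77.0%. In M9 replicate 1 the whole interval lay above the share of the other cells. In the other 3 libraries the interval included that share. The interval treats the cells of 1 library as independent and does not measure the spread between libraries. A call of 3 or more UMIs also depends on depth, and high-score cells were clearly deeper in M9 replicate 1. All 4 shares were far under those of cycling cells. The limit on Mki67, Top2a and Ccnb2 had set cycling cells apart, so this gap was largely fixed by the rule and does not test the name. After thinning to 5000 UMIs the shares of high-score cells were 0.472%, 0%, 1.40% and 0%, against 0.047%, 0%, 0.254% and 0.118% in the other cells. The thinned shares of high-score cells are of 212, 40, 214 and 107 cells, so they rest on a few cells or none. They cannot settle whether high-score cells differed from the other cells in a library. C6M9 lay 2.15 percentage points below M9, which 2 libraries against 2 cannot separate from chance (exact two-sided permutation p = 0.33, the smallest the design allows).

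High-score cells made up 9.07% and 6.56% of the M9 cells within the limits (7.82 ± 1.77, SD, n = 2) and 11.8% and 11.2% of the C6M9 cells (11.5 ± 0.432). The groups did not overlap and differed by 3.67 percentage points (exact permutation p = 0.33). The difference went to 0.21 points (p = 1 in the exact permutation test) when both the score and the limits were taken from cells thinned to 5000 UMIs, with shares of 10.58%, 8.73%, 9.63% and 10.1%. The limits are counts of UMIs, so thinning loosened them. That choice held 761 cells, of which 235 were high-score cells, so it describes largely other cells. With the score alone from thinned cells the difference was 3.78 points. Removal by the Tnfrsf4, Tnfrsf9 and Egr3 limit was uneven between groups. This limit alone was failed by 874 and 200 M9 cells but 155 and 140 C6M9 cells.

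The genes of the growth programme that the score did not use were next compared between high-score cells and the other cells. No test applies, because the score chose the cells. Of 7180 genes with at least 10 CPM over both classes together, 472 (6.57%) were at least 1.25-fold higher and 191 (2.66%) at least 1.25-fold lower in all 4 libraries, and the median gene had a log2 ratio of -0.03. Ribosome biogenesis was the list with most higher members, 39 of 46, with a median log2 ratio of 0.88. Its summed level was 3190, 3227, 3089 and 3218 CPM in high-score cells and 1600, 1590, 1841 and 1787 in the other cells. In no library did the classes come close to each other.

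Within ribosome biogenesis, box C/D and H/ACA proteins that guide rRNA modification were all higher. Fbl, the rRNA methyltransferase fibrillarin, stood at 197, 203, 173 and 202 CPM against 71.3, 67.2, 86.6 and 86.4 in the other cells, a mean ratio of 2.50. Its partners Nop58 and Nop56 had ratios of 2.24 and 2.14, the pseudouridine synthase Dkc1 2.23 and its small partner Nop10 1.80. RNA polymerase I, which transcribes rRNA, was represented by Polr1a (ratio 2.30) and, under the 10 CPM limit of the count, Polr1b (3.41), and the nucleolar factors Mrto4, Nolc1, Mybbp1a and Ddx21 had ratios of 2.92, 2.19, 2.71 and 1.86. Every gene of this paragraph was higher in each of the 4 libraries.

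Protein folding and mitochondrial build-up followed. Of the mitochondrial import and translation genes 20 of 26 were higher in all 4 libraries (median log2 ratio 0.60) and of the chaperones 17 of 27 (0.59). Hsp90ab1, a cytosolic HSP90, stood at 2559, 2232, 2067 and 2157 CPM, 1.71 times the other cells, and the mitochondrial chaperones Hspa9 and Hspe1 at 2.62 and 1.68 times. Cct3, a subunit of the cytosolic chaperonin, was 1.85 times higher. Proteasome genes (12 of 29 higher, median 0.43), aminoacyl-tRNA synthetases (9 of 19, 0.49), translation factors (7 of 20, 0.42) and oxidative phosphorylation genes (7 of 39, 0.39) also had more higher members than the 6.57% of all genes.

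Of nucleotide and polyamine synthesis genes, 10 of 16 were higher (median log2 ratio 0.69). Nme1, a nucleoside diphosphate kinase, was at 340, 340, 309 and 314 CPM and 2.39 times its level in other cells, and Gart and Impdh2 of purine synthesis were 2.51 and 2.13 times higher. In serine and one-carbon metabolism 4 of 8 genes were higher: Shmt2, the mitochondrial serine hydroxymethyltransferase, at 37.4, 40.9, 29.8 and 35.1 CPM (ratio 2.65), Psat1 (1.81), Mthfd1l (1.54) and Mat2a (1.46). Of the transport genes 1 of 10 was higher and 1 of 10 lower, shares near those of all genes. The transferrin receptor Tfrc, at 27.2, 23.0, 23.0 and 28.2 CPM, was 2.05 times higher, and the glucose transporter Slc2a3, at 16.99, 26.8, 22.7 and 17.3 CPM, was at 0.66 times the other cells. Under the 10 CPM limit of these counts, Slc7a5 (9.58, 16.6, 9.56 and 8.41 CPM), the folate carrier Slc19a1, Mthfd1 of folate metabolism and Cad of pyrimidine synthesis were 3.61, 3.79, 3.45 and 2.46 times higher. Glycolysis was less uniform, with 4 of 15 genes higher. Its triosephosphate isomerase Tpi1 had a ratio of 2.25, lactate dehydrogenase Ldha 1.61 and Gapdh 1.27.

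Among genes outside the score with at least 20 CPM in each library of high-score cells, Mettl1 had the largest ratio. This tRNA methyltransferase stood at 36.8, 35.8, 35.8 and 46.0 CPM against 3.92, 5.02, 8.40 and 9.98 in the other cells, 6.03 times higher. Apex1, an endonuclease of DNA repair, was 3.65 times higher, and the nucleotide pyrophosphatase Dctpp1, the mitochondrial ATPase Atad3a and the import chaperone Timm8a1 were 3.33, 3.27 and 3.04 times higher. Further down were Ppa1 (2.98), Galk1 (2.91), Rrp15 (2.88), Aimp2 (2.85), Nop16 (2.84), C1qbp (2.74) and Tsr1 (2.73). The genes with the lowest ratios were led by lectin-like receptors of effector and memory cells. Klrc2 stood at 17.6, 10.2, 13.8 and 6.43 CPM, 0.36 times the other cells, and Klrk1 and Klrc1 were both at 0.47 times. The integrin subunit Itga4 was at 93.9, 80.5, 140 and 108 CPM, 0.47 times the other cells.

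**Figure D2:**
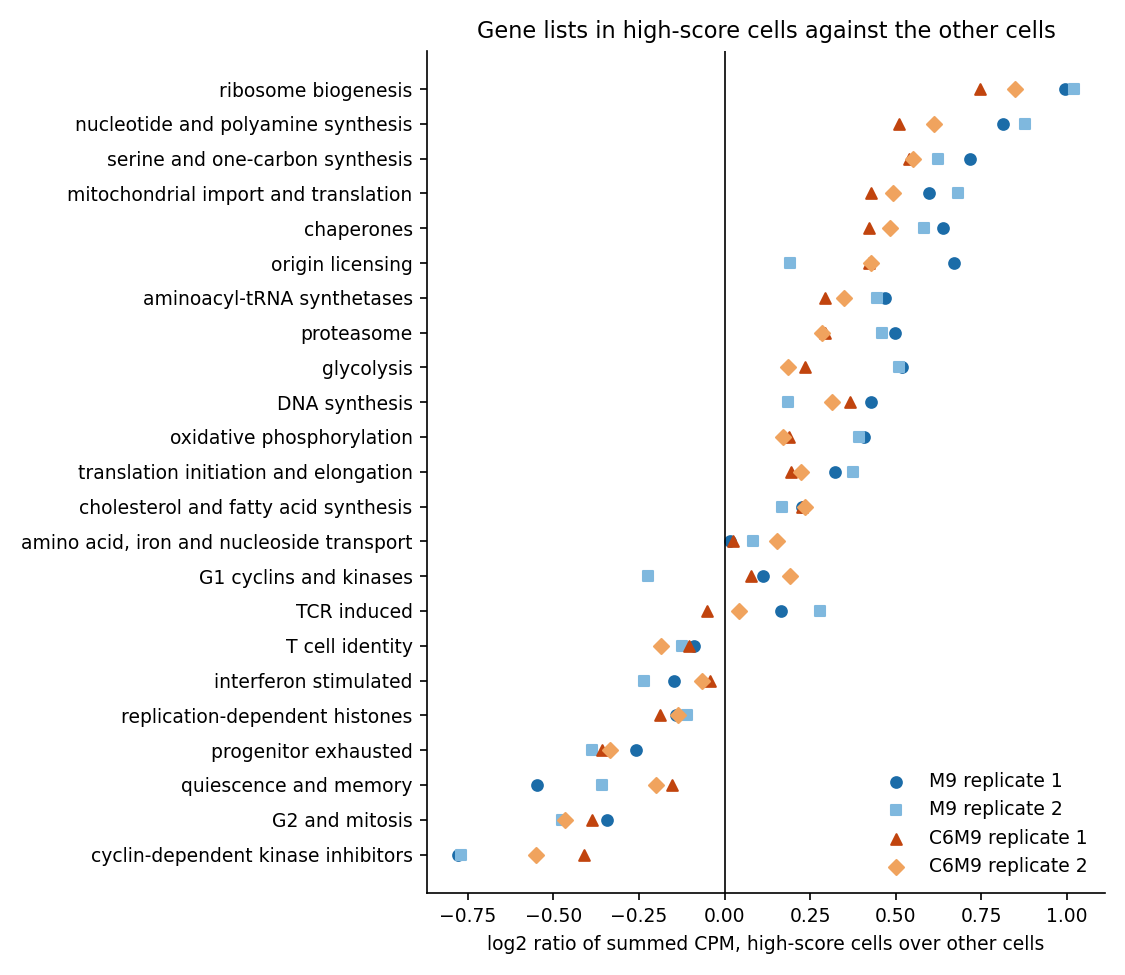
Log2 ratio of the summed CPM of each gene list in high-score cells over the other cells (horizontal axis), 1 point per library, lists in a fixed order. Ribosome biogenesis lies highest in all 4 libraries and the cyclin-dependent kinase inhibitors lie lowest, and for most growth lists the M9 libraries lie to the right of the C6M9 libraries.

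Of the G1 cyclins and kinases, which move a cell towards S phase, 1 of 11 was higher, with a median log2 ratio of -0.096 and a ratio of summed levels of 1.03. In M9 replicate 2 their sum was 723 CPM against 843 in the other cells. Cdk6 and Cdk4, the kinases of early G1, had ratios of 1.86 and 1.38, while their cyclins Ccnd2 and Ccnd3 had 1.07 and 0.87. The kinase inhibitor Cdkn1b (p27), which holds cells in quiescence, stood at 97.3, 103, 116 and 104 CPM against 169, 169, 141 and 136 in the other cells, a ratio of 0.69 that was below 1 in each library. Cdkn2d (p19), the other inhibitor with enough UMIs, had a ratio of 0.60. Among origin licensing genes 3 of 10 were higher. Mcm5, a subunit of the replicative helicase, was at 37.1, 21.7, 23.0 and 28.7 CPM (ratio 2.68), and Mcm2 and Pcna, the sliding clamp, had ratios of 1.82 and 1.44. These levels remained far under those of cycling cells, where Mcm5 averaged 154 and Pcna 331 CPM. Replication-dependent histones were not raised (0 of 5, list ratio 0.905).

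Quiescence and memory genes had a lower summed level in high-score cells, with a ratio of 0.808, although only 2 of 23 were lower in all 4 libraries by the criterion. Txnip, a brake on glucose uptake, had a ratio of 0.70, and Tcf7, which encodes TCF1, 0.77. The T cell identity list had 0 of 13 genes past the criterion in either direction, at summed levels of 8823, 8655, 8453 and 8104 CPM. Progenitor exhausted genes had a ratio of 0.794, with 3 of 15 lower.

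When all 5791 cells were divided into 10 equal groups by score, the growth lists rose slowly over the first 9 and stepped up in the last, as the plot of list levels along the score shows. Ribosome biogenesis went from 1491 CPM in the lowest group to 2137 in the ninth and 3181 in the high-score cells. Cycling cells, at 2437, were not ranked by score, so the 2 classes were not chosen alike. Within the high-score cells the pooled level was 2445 in the 289 lowest-scoring cells and 5593 in the top 58. Chaperones went from 4861 to 6142 and 7956, against 8573 in cycling cells. DNA synthesis genes went only from 579.6 to 694 and 782, against 4129 in cycling cells, and origin licensing genes from 217 to 264 and 319, against 1388. Quiescence and memory genes were near level up to the ninth group, from 6032 to 5632, and then at 4690. The cells that failed only the limit on Tnfrsf4, Tnfrsf9 and Egr3 were above the high-score cells in ribosome biogenesis (3505 CPM) and chaperones (8648) and near them in DNA synthesis (844).

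**Figure D3:**
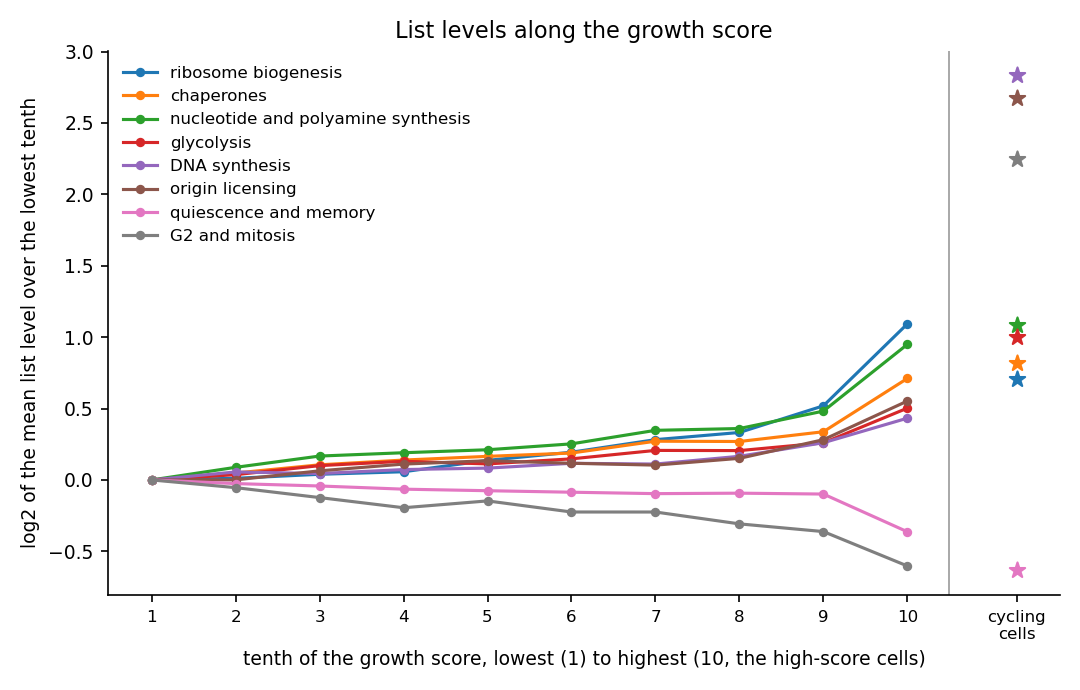
Mean summed level of 8 gene lists over the 4 libraries in 10 equal groups of cells by growth score (horizontal axis, group 10 being the high-score cells), as log2 of the ratio to group 1 (vertical axis), with cycling cells as stars at the right. Ribosome biogenesis reaches its highest point in group 10, above its star, while DNA synthesis and origin licensing stay far under theirs. Cycling cells were not chosen by score.

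The study's comparison was then made inside the high-score cells, as C6M9 minus M9. UMIs were summed per library and tested in edgeR with the quasi-likelihood test, and log2 differences are given with their standard error (SE) and a Benjamini-Hochberg adjusted p over all genes tested. Of 9007 genes, 105 rose (1.17%) and 111 fell (1.23%) in C6M9 at an adjusted p under 0.05, 216 in all (2.4%), and the median log2 difference of all genes was 0.004. In the other cells 646 of 11740 genes were called (5.5%), 259 higher (2.21%) and 387 lower (3.3%). Of the genes called in high-score cells, 152 were called in the same direction there, 70.4% of the 216 and 23.5% of the 646. In C6M9 high-score cells, 9 of 24 quiescence and memory genes and 16 of 38 interferon stimulated genes were higher, and 12 of 18 progenitor exhausted and 11 of 28 TCR induced genes were lower.

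With all 4 libraries, no gene of 8 growth lists was called between the groups. At an adjusted p under 0.05 in edgeR, 0 of 54 ribosome biogenesis genes passed, 0 of 27 chaperones, 0 of 20 translation factors, 0 of 20 aminoacyl-tRNA synthetases, 0 of 13 one-carbon genes, 0 of 18 glycolysis genes, 0 of 39 oxidative phosphorylation genes and 0 of 29 mitochondrial import and translation genes. DESeq2 also called 0 in each. At an unadjusted p under 0.05 in edgeR there were 5 glycolysis genes, 2 chaperones, 2 mitochondrial genes, 1 oxidative phosphorylation gene and 0 in the other 4 lists. These counts moved with single libraries. Without M9 replicate 1, 2 ribosome biogenesis genes, 4 chaperones and 2 mitochondrial genes were called, without M9 replicate 2, 2 glycolysis genes and 1 oxidative phosphorylation gene, and without C6M9 replicate 1, 1 glycolysis gene. Because all cells were cut at one score, high-score cells of both groups were set to a like level of this programme, and these counts describe the rule as much as the groups. The other cells all lie under the same cut. Among them 11 of 54 ribosome biogenesis genes rose in C6M9. Their median log2 difference was 0.34, against 0.12 in high-score cells.

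Single metabolic genes did differ. Odc1 was at 145, 133, 63.8 and 87.5 CPM, lower in both C6M9 libraries, with a log2 difference of -0.80 (SE 0.17, adjusted p = 0.014). Scd2, which desaturates fatty acids, was at 119, 89.4, 44.3 and 32.6 (-1.37, adjusted p = 0.00046), and the nucleoside transporter Slc29a1 at 46.0, 28.1, 17.7 and 17.3 (-1.11, adjusted p = 0.019). They were the only genes called among 20 nucleotide and polyamine, 23 cholesterol and fatty acid and 13 transport genes. The Odc1 call was lost without C6M9 replicate 1, with DESeq2, in the top 20% and with the top 10% of each library, and the Slc29a1 call without any 1 of 3 libraries, while Scd2 passed in all 14 alternatives tried. Of the genes of cell cycle entry, Ccnd2 stood at 291, 250, 378 and 375 CPM and rose by 0.57 (SE 0.14, adjusted p = 0.041), a call lost in 8 of 14 alternatives. Racgap1, a regulator of cytokinesis, rose from 17.9 and 28.1 to 40.0 and 38.6 (1.03, adjusted p = 0.019), a call lost in 5 of 14 alternatives, among them DESeq2 and leaving out M9 replicate 1 or C6M9 replicate 1. Ccnd2 lost its call with DESeq2 and without either C6M9 library. Ccnd3, Cdk4, Cdkn1b, Mcm2 and Pcna did not pass, with adjusted p-values of 0.55 to 0.97 in edgeR.

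Of 24 quiescence and memory genes, 9 rose and the others did not pass. The median log2 difference of the list was 0.51, against 0.26 in the other cells, where 9 of 24 also rose. Plac8 stood at 39.2, 76.6, 204 and 219 CPM, a difference of 2.15 (SE 0.21, adjusted p = 8.4e-06). The memory marker Ly6c2 was at 183, 296, 714 and 588 (1.61, adjusted p = 3.7e-05). Il7r, the receptor for the survival cytokine IL-7, was at 87.7, 202, 427 and 318 (1.61, SE 0.24, adjusted p = 0.00094). In each of these genes M9 replicate 1 was lowest and the groups did not overlap. The Il7r call was lost with DESeq2 and with the top 10% of each library.

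Genes of lymphocyte trafficking were among them. Klf2, the transcription factor that maintains S1pr1, stood at 218, 270, 535 and 441 CPM and rose by 1.14 (adjusted p = 0.00025). S1pr1, the receptor for exit from lymph nodes, rose from 44.8 and 69.0 to 136 and 113 (1.36, adjusted p = 0.00037). Tcf7 did not follow this list. At 406, 516, 430 and 444 CPM it differed by 0.05 (adjusted p = 0.95), and the groups overlapped. The list counted 4 higher genes, in place of 9, when the top 10% were taken within each library, and 14 without M9 replicate 2.

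Cells were also counted by 2 markers of opposite direction. In cells thinned to 5000 UMIs, Il7r without Izumo1r was seen in 25.5% and 35.0% of the M9 high-score cells and in 66.4% and 60.8% of the C6M9 cells. Izumo1r without Il7r was seen in 23.6% and 20% of M9 and in 2.34% and 1.87% of C6M9 high-score cells. Unthinned, Il7r was seen in 48.8%, 61.9%, 80.4% and 80.6% and Izumo1r in 50.7%, 61.9%, 13.6% and 16.7% of high-score cells. Both genes had a UMI in 0 of 39 B cells with a median depth of 3564 to 7059 UMIs, but these had been chosen for having no UMI of Cd3d, Cd3e, Cd3g, Cd8a or Cd8b1, so this count sets no limit on free RNA. The shares in the other cells were similar to these, with Izumo1r alone in 25.1%, 21.0%, 2.22% and 4.005%.

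Of 38 interferon stimulated genes 16 were higher in C6M9, the others did not pass, and the list had a median log2 difference of 0.68. Isg15, a ubiquitin-like modifier, stood at 60.5, 63.9, 145 and 162 CPM, a difference of 1.42 (SE 0.16, adjusted p = 3.7e-05), and was called in all 14 alternatives. Usp18, which removes Isg15 from proteins, was at 9.58, 11.5, 23.0 and 29.2 (1.46, adjusted p = 0.0076), and Irf7, a transcription factor that amplifies the response, at 29.4, 33.2, 54.9 and 66.8 (1.09, adjusted p = 0.0044). The oligoadenylate synthetase genes Oasl2 (1.85, 1.28, 9.92 and 17.3) and Oas1a (3.71, 0, 8.86 and 17.8) had the largest differences, 2.98 and 2.22, at low counts, with adjusted p-values of 0.0029 and 0.031. Both calls were lost with DESeq2, that of Oas1a also without C6M9 replicate 2, and that of Usp18 with DESeq2 and without M9 replicate 1. Ifit1bl1, outside the list, was at 8.96, 6.38, 32.6 and 29.2 (1.98, adjusted p = 0.00051).

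Not every interferon gene took part. Ifi27l2a, with 1961, 2209, 1687 and 1702 CPM, differed by -0.18 (adjusted p = 0.65). In the other cells of the same libraries 6 of 39 genes of the list rose, with a median of 0.24. Isg15 was there at 77.5, 98.2, 100 and 102, a difference of 0.32 (adjusted p = 0.11), so that high-score cells lay under the other cells in M9 and over them in C6M9. The number of higher genes was 10 without C6M9 replicate 1, 10 with the score from thinned cells, 8 with the top 10% of each library, 6 with DESeq2 and 24 without M9 replicate 2.

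**Figure D4:**
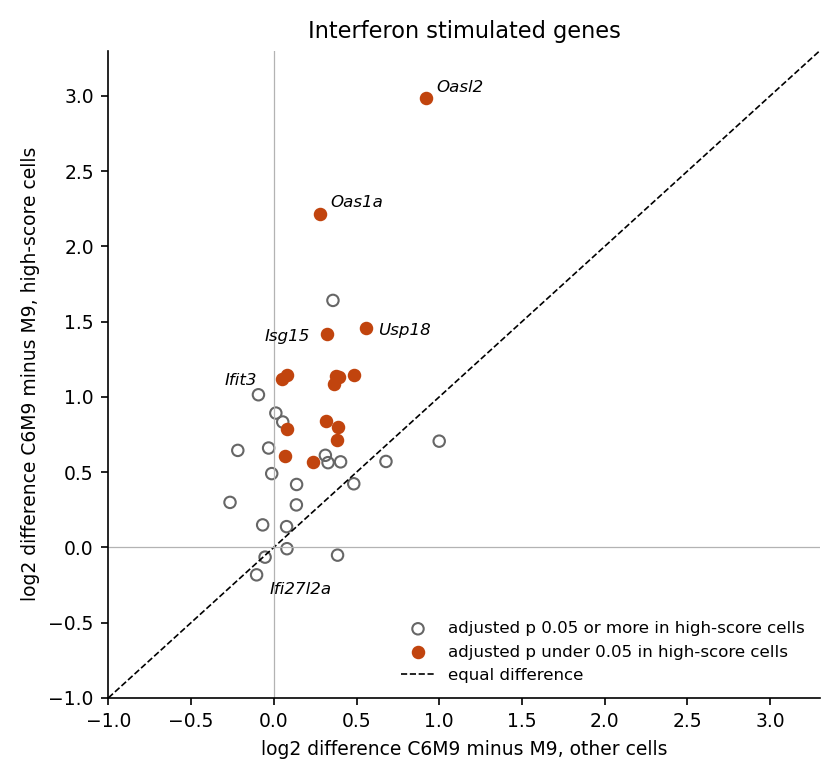
Log2 difference C6M9 minus M9 of each interferon stimulated gene in high-score cells (vertical axis) against the same in the other cells (horizontal axis), with filled points for the 16 genes called in high-score cells and a dashed line where both are equal. All filled points lie above the line, with Oasl2 and Oas1a farthest up, and Ifi27l2a lies near 0 on both axes.

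Progenitor exhausted genes fell in C6M9, 12 of 18 with a median log2 difference of -1.03, and the other cells showed the same direction with 17 of 19 lower (median -1.18). Izumo1r, a folate receptor family member of this state, stood at 86.5, 98.3, 18.1 and 14.3 CPM, a difference of -2.36 (SE 0.20, adjusted p = 3.0e-06). Tox, the transcription factor of exhaustion, was at 193, 244, 92.1 and 104 (-1.02, adjusted p = 0.00094). Slamf6, a surface marker of the progenitor state, was at 527, 358, 242 and 239 (-0.80, adjusted p = 0.014) and lost its call without M9 replicate 1, C6M9 replicate 1 or C6M9 replicate 2.

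Other members fell further. Gpm6b was at 33.7, 33.2, 5.31 and 3.46 CPM (-2.77), the inhibitory lectin Cd22 at 56.8, 86.8, 7.79 and 11.9 (-2.70), and the transcription factors Bcl6 and Sox4 differed by -2.46 and -1.93. Myb, required for self-renewal of these cells, was at 163, 149, 70.1 and 85.5 (-0.92). All of these had adjusted p-values of 0.0030 or lower in edgeR, though Bcl6 missed the threshold with DESeq2 and without M9 replicate 1. Penk, which encodes enkephalin precursor, had 115 and 3 UMIs in the M9 libraries and 0 in both C6M9 libraries, which allows up to 0.619 CPM there. It was too uneven within M9 (35.5 and 3.83 CPM) to be described as a group level.

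Among 28 TCR induced genes 11 fell (median -0.62), against 9 of 34 in the other cells (median -0.38). Both classes by rule had fewer than 2 UMIs of Tnfrsf4, Tnfrsf9 and Egr3 together. Tnfsf4, the ligand OX40L, stood at 28.4, 29.4, 2.83 and 2.97 CPM, a difference of -3.19 (adjusted p = 3.4e-05). Cd200 was at 183, 149, 36.5 and 26.7 (-2.29, adjusted p = 2.6e-06) and the chemokine Xcl1 at 98.2, 80.5, 25.1 and 26.7 (-1.72, adjusted p = 3.5e-05). These 3 genes were high in both M9 libraries.

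Summed over the TCR induced list, M9 replicate 1 was highest in the other cells too (1840, 1223, 1042 and 1195 CPM). In high-score cells a second set of genes was high in M9 replicate 1 alone. The nuclear receptor Nr4a2 was at 69.2, 6.38, 1.06 and 15.3 CPM, so that the groups overlapped, and its difference of -2.66 (adjusted p = 0.027) turned to 0.33 without M9 replicate 1. Ifng was at 51.3, 16.6, 4.25 and 11.9 (-2.31, adjusted p = 0.0040) and the chemokine Ccl4 at 26.9, 5.11, 2.13 and 5.93 (-2.34, adjusted p = 0.018). Both lost their call without that library, as did Gadd45b (110, 38.3, 20.2 and 31.6) and Nrgn (55.0, 6.38, 6.38 and 4.45), whose difference of -2.73 went to -0.06. Without M9 replicate 1 the list counted 6 lower genes, with DESeq2 3 and with the top 10% of each library 5.

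Inhibitory receptor genes had 2 of 7 lower, against 3 of 11 in the other cells. Lag3 stood at 204, 232, 70.8 and 64.3 CPM (-1.56, adjusted p = 8.4e-06), and Ctla4 at 83.7, 44.7, 16.6 and 26.2 (-1.65, adjusted p = 0.0016), with an adjusted p of 0.066 without M9 replicate 1. Of 15 effector and killer lectin genes 4 rose and 1 fell, against 5 and 1 of 19 in the other cells. The calcium-binding proteins S100a4 (108, 195, 400 and 420) and S100a6 (241, 312, 732 and 473) rose by 1.64 and 1.26 and the chemokine Ccl5 (148, 331, 578 and 431) by 1.28. Gzmk, a granzyme that the rule did not use, fell from 18.2 and 34.5 to 3.19 and 3.46 (-2.68, adjusted p = 0.00086). Nkg7, a granule protein, was at 942, 689.6, 1114 and 891 and did not pass (0.40, adjusted p = 0.31).

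Cytokine receptors changed in few members, with 3 of 26 higher and 1 lower, against 6 of 29 higher and 1 lower in the other cells. Ifngr1, a chain of the interferon gamma receptor, was at 51.0, 60.02, 108 and 101 CPM (1.06, adjusted p = 0.0010). Il18rap, of the IL-18 receptor, was at 13.6, 15.3, 35.8 and 27.2 (1.28, adjusted p = 0.0090), and Il4ra rose by 1.19 (adjusted p = 0.018). Il10ra fell from 58.7 and 47.2 to 27.6 and 18.3 (-1.12, adjusted p = 0.0085). All 3 rises lost their call with the top 10% of each library. Il10ra lost its call with DESeq2 and without M9 replicate 1 or C6M9 replicate 2, Il18rap with DESeq2 and without M9 replicate 1 or C6M9 replicate 1, and Il4ra with DESeq2 and without C6M9 replicate 2.

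Of the genes with the largest differences, Wnt10a, a secreted Wnt ligand, fell most, from 46.6 and 42.1 to 4.96 and 2.97 CPM (-3.34, SE 0.30, adjusted p = 4.6e-06). The uncharacterised 1700019D03Rik fell from 37.4 and 26.8 to 6.02 and 3.46 (-2.68), and Phactr2 and Cables1 by 2.72 and 2.57 at under 13 CPM. The Phactr2 call was lost without either C6M9 library and the Cables1 call with DESeq2 and without M9 replicate 1. Among the rises were the receptor Treml2 (7.41, 8.94, 28.7 and 27.2, a difference of 1.94), the lipolysis inhibitor G0s2 (3.09, 10.2, 16.6 and 17.3, 1.94) and the galectin Lgals3 (4.02, 14.0, 21.3 and 20.3, 1.81); the calls of G0s2 and Lgals3 were lost with DESeq2 and without M9 replicate 1. Igfbp4 rose by 3.12 (adjusted p = 0.022), with 0.927, 3.83, 5.67 and 21.8 CPM, and lost its call in 5 alternatives, among them leaving out M9 replicate 1 or C6M9 replicate 2. The heat shock gene Hspa1a, known to respond to tissue dissociation, had 18.8, 16.6, 28.0 and 94.5 CPM, and its difference of 1.79 (adjusted p = 0.020) was lost without C6M9 replicate 2. Not every called gene was tried in the alternatives, and Klf2, S1pr1, Irf7, Cd200, Xcl1, Sox4 and Myb were not. Of the genes tried, the rises called under all 14 alternatives were Plac8, Ly6c2, Isg15, Ifit1bl1, S100a4, S100a6 and Treml2. The falls called under all 14 were Wnt10a, Tnfsf4, Izumo1r, Cd22, Gpm6b, Gzmk, Lag3, Tox, Scd2 and 1700019D03Rik.

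**Figure D5:**
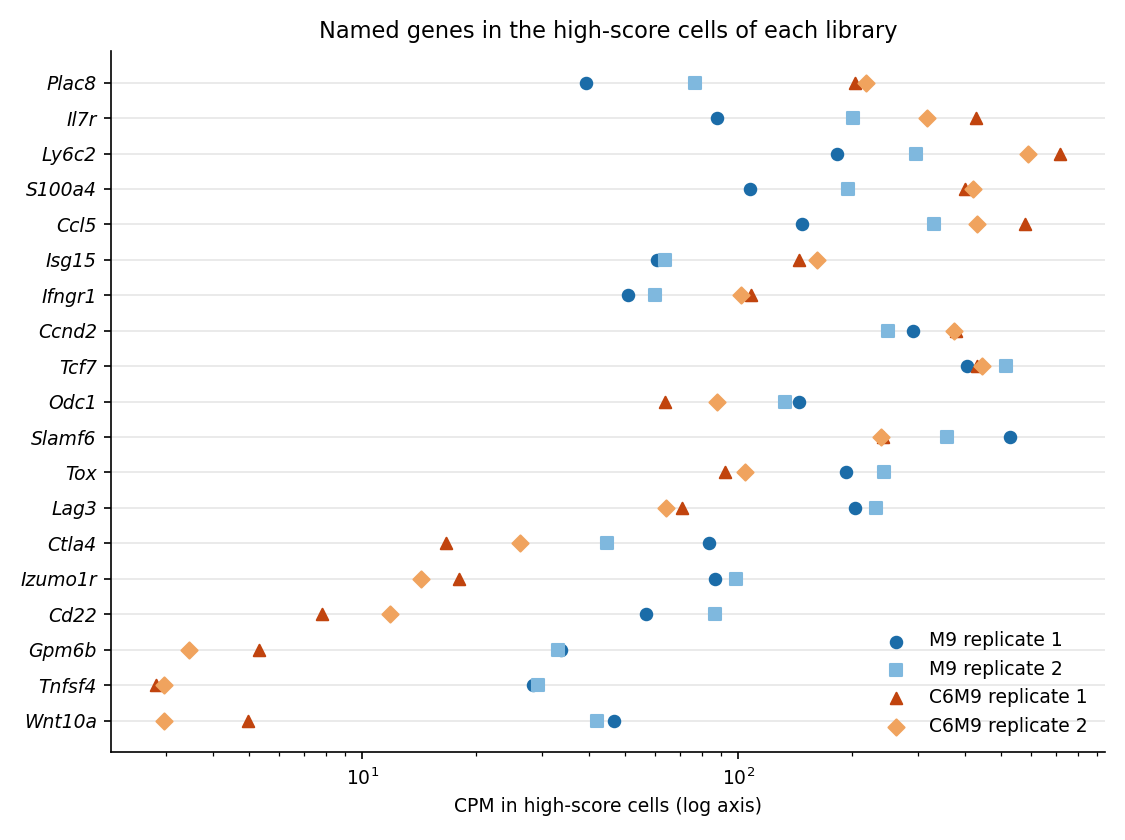
CPM in the high-score cells of each library (horizontal log axis) for 19 genes named in the text, 1 point per library. Tcf7 is the gene whose groups overlap, Plac8 to Ccnd2 lie higher in the C6M9 libraries, and Odc1 to Wnt10a lie lower there.

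Whether high-score cells differed from the other cells in their C6M9 minus M9 difference was tested as an interaction over 8 sums from the 4 libraries. Of 10857 genes, 90 were called (0.829%), 37 with a higher difference in high-score cells (0.341%) and 53 with a lower one (0.488%). Among interferon stimulated genes 3 of 38 were called, all higher. Isg15 differed by 1.00 (adjusted p = 1.4e-05) and Ifit3, at 40.2, 34.5, 89.6 and 65.3 CPM in high-score cells against 70.4, 112, 79.6 and 93.7 in the other cells, by 0.89 (adjusted p = 0.011). Slfn5 differed by 0.88 (adjusted p = 0.0093). The Ifit3 call was lost without C6M9 replicate 1. In all 3 genes the M9 high-score cells were lower than the M9 other cells in both libraries.

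Quiescence and memory genes had 6 of 24 with a higher difference in high-score cells, among them Il7r, Klf2, Klf3, S1pr1 and Txnip. Klf2, at 218, 270, 535 and 441 CPM in high-score cells, was at 399, 410, 526 and 486 in the other cells, a difference between differences of 0.70 (adjusted p = 1.3e-05). Its levels in M9 high-score cells were thus well under those of the other M9 cells, while C6M9 high-score cells lay closer to theirs. The Il7r difference between differences lost its call without M9 replicate 1 or C6M9 replicate 1. In the 289 lowest-scoring high-score cells the summed list was at 4046, 5346, 5917 and 5916 CPM, and in the top 58 at 2331, 2780, 3362 and 4137. The share of the top 58 cells that came from M9 replicate 1 moves with this result, and its part in it was not tested.

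Of the growth lists, glycolysis had 4 of 20 genes with a lower difference in high-score cells, oxidative phosphorylation 5 of 39, proteasome 3 of 29, nucleotide and polyamine synthesis 2 of 20, and ribosome biogenesis (54 genes), chaperones (27), translation factors (20) and mitochondrial import and translation (29) 1 each. Aminoacyl-tRNA synthetases and one-carbon genes had 0 of 20 and 0 of 13 in edgeR, with 3 and 2 at an unadjusted p under 0.05, and DESeq2, which gave no adjusted p for most genes, called 0 there. These values are tied to the common score cut described above. Genes with a lower difference included Mettl1 (-0.99, adjusted p = 0.039), Nme1 (-0.49, adjusted p = 0.0049), Ldha (-0.40, adjusted p = 0.0078) and Gapdh, at 925, 1023, 732 and 714 CPM in high-score cells against 629, 647, 655 and 713 in the other cells (-0.54, adjusted p = 1.3e-05). The hypoxia-associated gene Fam162a (109, 89.4, 73.3 and 61.3) had -0.68 and the Rab GTPase activator Tbc1d4 (89.9, 94.5, 25.2 and 20.3) had -0.67. Ctla4 also fell more than in the other cells (-0.89, adjusted p = 0.0097). Of these, the calls of Mettl1, Fam162a, Tbc1d4 and Ctla4 were lost without M9 replicate 1, among other libraries. Cd74, the MHC class II invariant chain and most abundant in B cells, was at 63.3, 21.7, 15.2 and 10.9 in high-score cells and at 39.4, 26.5, 23.6 and 54.6 in the other cells (-1.99, adjusted p = 3.9e-05), and this difference was -1.13 without M9 replicate 1 (adjusted p = 0.34 in edgeR) and turned to 0.80 when the top 20% were taken. Of the 5 B cell genes tested between the groups, Cd22 and Cd74 fell and Ighm rose (159, 189, 247 and 252, a difference of 0.65). The Cd74 fall lost its call with DESeq2, without M9 replicate 1 and with the top 10% of each library, and the Ighm rise with DESeq2, without either C6M9 library and with the top 10% of each library.

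Against cycling cells, 47 of 10572 genes were called (0.445%), 31 with a higher difference in high-score cells (0.293%) and 16 with a lower one (0.151%). Interferon stimulated genes gave 6 of these, all higher: Isg15, Ifit3, Irf7, Oasl2, Phf11b and Slfn5. Isg15 in cycling cells was at 60.5, 68.4, 52.2 and 69.2 CPM, where the groups overlapped, and the difference between differences was 1.43 (adjusted p = 2.4e-07). Plac8, Ly6c2, Klf2 and S1pr1 also differed more between groups in high-score cells than in cycling cells, by 0.82 to 1.11. Wnt10a, at 28.8, 29.1, 17.1 and 8.22 in cycling cells, fell further in high-score cells (-2.29, adjusted p = 2.9e-05, a call lost without C6M9 replicate 1), as did Cd200 (-1.003, adjusted p = 0.0017) and Cd22 (-1.23, adjusted p = 0.020).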

How the data were processed

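The deposited files hold untransformed UMI counts of 32285 features for each barcode of 4 libraries; the authors made them with Cell Ranger 6.0.0 on mm10, per the submitters' processing notes. The sources used here give neither the annotation release nor the use of intronic reads. The high-score cells and the 40 gene lists were chosen with earlier results of these data known.

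Cells were selected by the stated rule in Python 3.11.15 (numpy 2.4.6, scipy 1.17.1, pandas 2.3.3, scanpy 1.11.5, matplotlib 3.10.9). Levels are CPM of the summed cells of a class, and ratios of single genes are geometric means over the 4 libraries after 0.5 UMIs were added. Summed counts were tested by the two-sided quasi-likelihood test of edgeR 4.0.16 after TMM scaling and filterByExpr (R 4.3.3, limma 3.58.1), at an adjusted p of 0.05. The interaction model held library, class and class by group. DESeq2 1.42.0 served as an alternative, and the test was tried on simulated data. Score and filter genes stayed in the fits but are given no test result and are left out of list counts; 2 of the 90 genes called against the other cells and 3 of the 646 called in the other cells are such genes.

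Shares of cells were compared by exact permutation over libraries. Thinning drew 5000 UMIs per cell and left out 6 high-score cells and 85 other cells. The rule does not remove doublets: Scrublet marked at most 0.327% of a library on its own, so an alternative left out the highest scores at 0.8% per 1000 barcodes, 277 cells with 6 high-score cells among them. The 39 B cells are cells with 2 or more UMIs of Cd79a and Ms4a1 and none of Cd3d, Cd3e, Cd3g, Cd8a and Cd8b1.

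Genes were named by rule: the score genes and Myc; the 10 largest rises and falls with at least 10 CPM and no overlap of groups; up to 4 called genes and the most abundant gene of each list; the genes with the highest and lowest ratios to the other cells at 20 CPM or more; up to 5 per direction from each interaction; and 11 fixed genes. Other genes were picked from the lists after their values had been seen. Alternatives were other normalization, tool, filter, top shares, thinned score, a cut within each library, doublets and S phase cells left out, and each library left out in turn.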

Additional observations from a re-analysis of the deposited data

Results flagged for a closer look

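The results below are those where the C6M9 minus M9 difference of high-score cells was unlike that of another class of cells by the interaction test in edgeR. With 2 libraries per group no single library could be tested as standing apart. Against the other cells within the limits, 90 genes were called. The largest higher differences (log2) were in interferon stimulated genes and a non-coding RNA: Ifit1bl1 (1.48), Ifit3b (1.44), Mirt1 (1.03), Isg15 (1.00) and Ifit3 (0.89). Ifit3b stood at 7.72, 3.83, 22.0 and 18.3 CPM in high-score cells and at 14.2, 24.5, 15.7 and 19.9 in the other cells, so that the 2 classes differed in M9 and not clearly in C6M9. Mirt1 had the same shape, with 20.1, 20.4, 34.4 and 29.7 against 43.8, 57.7, 34.6 and 37.9. The largest lower differences were in Cd74 (-1.99), Mettl1 (-0.99), Ctla4 (-0.89), Fam162a (-0.68) and Tbc1d4 (-0.67). Of these 10 genes, Ifit1bl1 and Isg15 kept their call whichever library was left out, and each of the others lost it without at least 1 library; Cd74 went to -1.13 without M9 replicate 1.

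Against cycling cells, 47 genes were called. The largest higher differences were in Oasl2 (2.76), Lgals3 (2.19), Gna15 (1.71), Isg15 (1.43) and Fosb (1.42). Lgals3, at 58.4, 28.6, 41.1 and 36.9 CPM, overlapped between groups in cycling cells. Gna15, a G protein subunit, was at 6.18, 2.55, 19.8 and 9.40 in high-score cells. Fosb, an immediate early gene, was at 36.8, 5.11, 23.4 and 66.3 there, so that its groups overlapped and its own difference did not pass (adjusted p = 0.55). The largest lower differences were in Wnt10a (-2.29), Nrgn (-1.66), Cd74 (-1.49) and Marcksl1 (-1.44), an actin-regulating protein at 31.8, 19.2, 8.86 and 6.92 CPM in high-score cells and at 35.9, 32.3, 30.4 and 24.1 in cycling cells. Of the genes named against cycling cells, Isg15 alone kept its call whichever library was left out, and Cd74 went to -0.52 without M9 replicate 1 (adjusted p = 0.89 in edgeR). Penk was called as well, but its fitted difference depends on counts of 0 in C6M9 and is not given.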

How the results depend on the processing

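The 216 genes called between groups became 59 with DESeq2 (31 lower, 28 higher), 357 with no filter on low counts, 86 with the top 10% within each library, and 135 (without C6M9 replicate 1) to 523 (without M9 replicate 2) when 1 library was left out, with 355 without M9 replicate 1 and 166 without C6M9 replicate 2. With the replicate block 348 genes were called, but the numbers do not pair libraries: deviations of the replicates numbered 1 correlated at -0.036 across genes. The 90 genes whose difference was unlike that of the other cells became 15 with DESeq2, which gave no adjusted p for 9893 of the 10857 genes, 145 in the top 5%, 45 in the top 20%, 15 with the thinned score, 17 within each library, 58 without S phase cells and 34 (without M9 replicate 1) to 129 with a library left out, 35 without C6M9 replicate 1. With DESeq2's size factors in edgeR 39 were higher and 35 lower. The 47 against cycling cells became 5 with DESeq2, 89 in the top 5%, 24 with the thinned score, 17 within each library, 24 without likely doublets, 18 without S phase cells, and 12 (without C6M9 replicate 1) to 82 (without C6M9 replicate 2) with a library left out. The difference in the share of cells, 3.67 points, was 8.01 in the top 20% and 2.41 to 4.92 with a library left out. It was 3.78 with the score alone from thinned cells and 0.21 with score and limits from thinned cells. That in S phase calls, -2.15 points, was -11.2 at 1 or more UMIs, 0.47 after thinning, -5.40 in the top 5%, -0.42 in the top 20%, and -2.79 to -1.51 with a library left out.

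Signs turned with a library left out for Nr4a2 (range -5.28 to 0.33), Cdk4 (-0.30 to 0.37), Tcf7 (-0.093 to 0.19), Mcm2 (-0.15 to 0.48), Pcna (-0.011 to 0.39) and the difference of Nrgn from cycling cells (-1.97 to 0.69). Nr4a2, Cdk4, Tcf7 and Nrgn turned without M9 replicate 1, Mcm2 without M9 replicate 2 (-0.068) or C6M9 replicate 1, and Pcna without M9 replicate 2. Mcm2 also turned in the top 5% (-0.24), in the top 20% (-0.052) and with the thinned score (-0.18), Cdk4 with the thinned score (0.0070), Tcf7 within each library (-0.0073) and Cd74 in the top 20% (0.74). The differences of Cd74 from the other cells (0.80) and from cycling cells (0.71) turned in the top 20%, and that of Itga4 from the other cells with the thinned score (-0.062). The cause was not tested. A thinned score chose 570 cells, of which 368 were high-score cells. Score and limits from thinned cells chose 761 cells, of which 235 were high-score cells. Depth limits the M9 sums most, since M9 replicate 2 rests on 42 cells.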
